A study of Mus musculus with 12 samples.

Results

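The genes described here are the nuclear-encoded subunits of the mitochondrial respiratory chain and of the ATP synthase, with the complex I assembly factors that carry the same symbols. They were chosen by symbol alone: a symbol that begins with Nduf, Uqcr, Atp5, Cox4i, Cox5, Cox6, Cox7 or Cox8, or that is Sdha, Sdhb, Sdhc or Sdhd, without pseudogenes. The array carried 91 such genes on 142 probes, out of 27308 genes with a symbol. Of the 91, 90 passed the detection filter with 136 probes, as did 18266 of all genes, and Cox8c did not pass. The 90 genes comprised 36 subunits of complex I, 4 of complex II, 8 of complex III, 18 of complex IV, 16 of complex V and 8 assembly factors.

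Hypothalamus RNA of male mice was hybridized to 12 single-color Agilent arrays, with 3 arrays in each of 4 groups. WT were wild-type littermates without swimming, KO were homozygous Asmt-knockout mice without swimming, the wild-type exercise group was trained to swim, and KE were Asmt-knockout mice trained to swim. Asmt encodes the last enzyme of melatonin synthesis. The knockout was a 20 bp deletion made with CRISPR/Cas9 in zygotes of C57BL/6 mice, and the founders had been crossed back for 3 generations to littermates without it. The labels gave an age of 6 to 7 weeks, and the methods placed the start of swimming at that age. All mice were housed alike, and the arrays of a group carried different replicate numbers. The labels do not say whether each array was 1 animal, so p-values measure the spread between these samples, which may be technical in part.

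The respiratory chain sits in the inner mitochondrial membrane. Complexes I and II pass electrons from NADH and succinate to ubiquinone, complex III hands them to cytochrome c, and complex IV reduces oxygen. Complexes I, III and IV pump protons, and complex V, the ATP synthase, uses the gradient to make ATP. Most subunits are encoded in the nucleus and imported, while a small set is made inside the mitochondrion. Neurons rely heavily on this machinery, and a few complex IV subunits exist as isoforms typical of muscle, testis or hypoxic tissue.

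The arrays lay on 2 slides, and the slide did not run across the groups evenly. Slide 1 held 5 arrays, the 3 of WT and KO replicates 1 and 2, and slide 2 held 7 arrays, KO replicate 3 and all of wild-type exercise and KE. The first principal component over all genes took 42.7% of the variance and placed slide 1 at -27.9 to -16.7 and slide 2 at 11.04 to 23.1, with KO replicate 3 at 23.1. For wild-type exercise versus WT the slide and the swimming were therefore joined except through the KO arrays, whereas KE and wild-type exercise shared slide 2. KO was the only group on both slides. A slide term in the fit is thus the gap between KO replicate 3 and KO replicates 1 and 2. In wild-type exercise versus WT that fit takes this gap, which rests on 1 array, off the difference. In KE versus KO it sets KE against KO replicate 3 alone. The Asmt probe was not well above background on any array, at a log2 intensity of 1.83 to 2.49, so it gave no check of the genotype. Of 10 hypothalamic markers 9 were well above background on all 12 arrays, and so were the 8 neuronal markers. Markers of the hypothalamus and of neighbouring tissue varied among arrays. The mean log2 intensity of the 10 hypothalamic markers was 12.46 to 12.60 in WT, 12.40 to 12.77 in KO, 12.49 to 12.75 in wild-type exercise and 12.62 to 12.77 in KE. Single hypothalamic markers differed by -0.43 to 2.01 in wild-type exercise versus WT and by -0.39 to 1.41 in KE versus KO. The mean log2 intensity of 5 striatal markers was 8.35 to 8.88 in WT, 8.26 to 8.45 in KO, 8.36 to 9.69 in wild-type exercise and 8.20 to 8.30 in KE. That of 6 choroid plexus markers was 6.99 to 7.49 in WT, 6.71 to 7.78 in KO, 7.39 to 8.09 in wild-type exercise and 7.07 to 7.37 in KE. Their part in the values below was not tested.

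Most members gave bright signal, with a median log2 intensity of 14.07, although intensity depends on the probe and is no measure of expression between genes. The median SD within groups was 0.068 on the log2 scale for the members and 0.117 for all genes. Genes tested at or above the lowest quartile of the members' level had a median SD of 0.071. In bulk tissue, fewer cells of a type and less RNA per cell cannot be told apart.

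No member passed an adjusted p of 0.05 in any of the 5 comparisons by limma, nor did any other gene tested (0% in KO versus WT, 0% in wild-type exercise versus WT, 0% in KE versus KO, 0% in KE versus wild-type exercise and 0% for the interaction). The methods' t-test gave 0, 1, 0 and 0 members with an adjusted p under 0.05 in the 4 comparisons of groups, the 1 being Atp5o, where 239 of 18259 genes passed. None of the 90 members reached the study's screening criterion (a change of 2-fold or more, with an unadjusted p no higher than 0.05) by limma. Over all genes, 0.175%, 1.22%, 0.651%, 0.192% and 0.515% met it in KO versus WT, wild-type exercise versus WT, KE versus KO, KE versus wild-type exercise and the interaction. For 89, 86, 88, 88 and 89 of the 90 members the whole 95% interval of the difference lay within 1 log2 unit of 0. For 84, 80, 82, 84 and 83 members it lay within 0.5 log2 units.

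**Figure D1:**
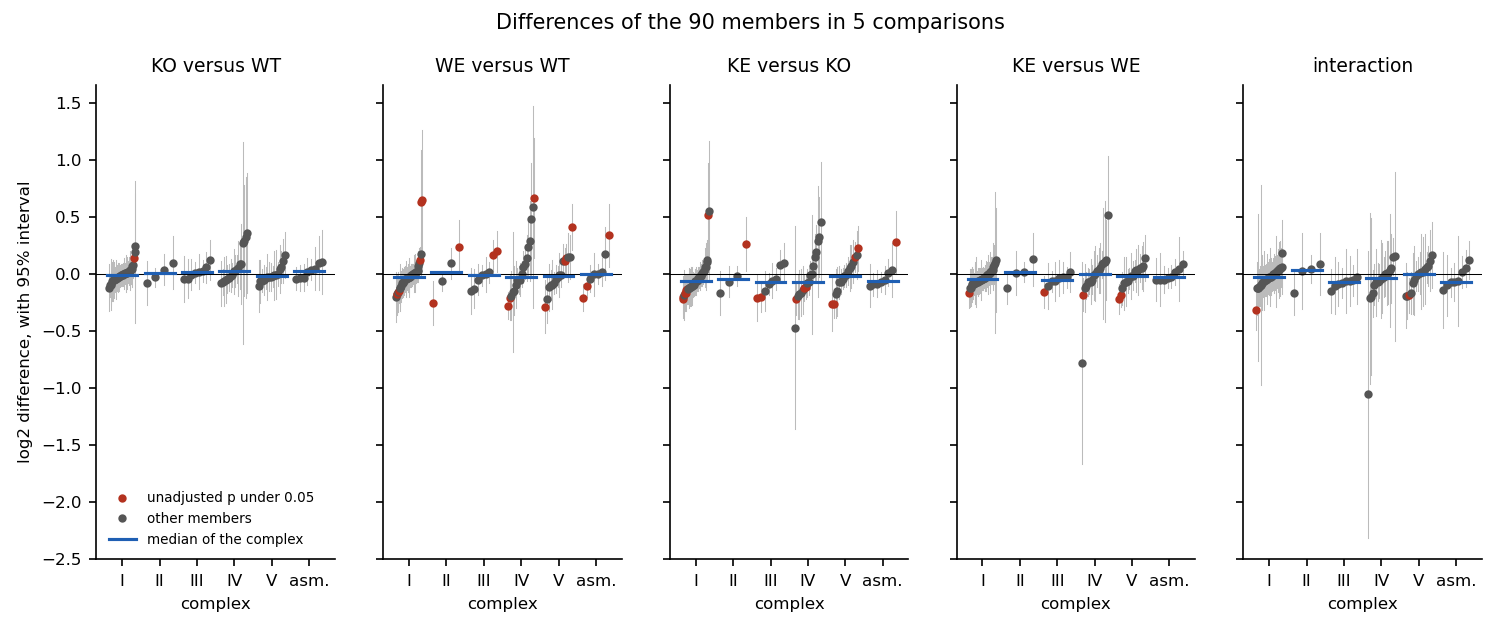
Log2 difference of each of the 90 members (points, with 95% intervals as grey lines) in the 5 comparisons, arranged by complex on the horizontal axis (asm., assembly factors) and by size within a complex. Red points have an unadjusted limma p under 0.05 and blue bars mark the median of each complex. Most points lie close to 0, and Cox8b, a dim isoform of complex IV, has the widest intervals.

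The first comparison asked whether the knockout alone altered these genes. In KO versus WT the median log2 difference of the members was -0.0046, against -0.0077 for all genes, and the members ran from -0.12 to 0.36. At an unadjusted p under 0.05, 1 member was higher and 0 were lower, where 2.68% of all genes were higher and 2.79% lower. The single member was Ndufb8, an accessory subunit of the complex I membrane arm. Its log2 intensity was 10.17, 10.12 and 10.29 in WT and 10.40, 10.31 and 10.30 in KO. The KO values lay just above those of WT, with a difference of 0.14 (SE 0.058, adjusted p = 0.839 by limma). Its dimmer probe gave 0.27 and its brighter probe 0.017. With only the brightest probe of each gene, 0 members were higher and 0 lower, beside 2.6% and 2.52% of all genes. The next members by p were Ndufa10 at -0.097, Atp5o at 0.17 and Uqcrb at 0.13, each with an adjusted p of 0.839. Under the slide fit, and likewise without KO replicate 3, Atp5o was at 0.051 and Uqcrb at 0.043.

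The second comparison asked what swimming did in wild-type mice. In wild-type exercise versus WT the median difference of the members was -0.016, against -0.037 for all genes. Here 11 members were higher and 8 lower at an unadjusted p under 0.05, beside 10.6% and 14% of all genes. The 11 were Atp5b, Atp5c1, Atp5o, Cox7c, Ndufa8, Ndufaf1, Ndufb2, Ndufs5, Sdha, Uqcrb and Uqcrfs1, and the 8 were Atp5g2, Cox7a1, Ndufa13, Ndufa4l2, Ndufa9, Ndufaf3, Ndufaf7 and Sdhc. Both complex III members among them were higher, while complexes I, II, IV and V and the assembly factors had members on both sides. With the slide in the fit, 3 members were higher and 4 lower, beside 2.98% and 3.01% of all genes, and the median of the members was 0.018. The counts also depended on the normalization. Scaling by the 75th percentile, without the slide term, gave 5 members higher and 18 lower, beside 9.88% and 14.8% of all genes.

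The third comparison asked what swimming did in knockout mice. In KE versus KO the median difference of the members was -0.058, against -0.041 for all genes, and 61 of the 90 lay below 0, beside 10991 of the 18266 genes. At an unadjusted p under 0.05, 5 members were higher and 13 lower, beside 6.95% and 13.5% of all genes. The 5 were Atp5b, Atp5o, Ndufaf1, Ndufs5 and Sdha. The 13 were Atp5d, Atp5g2, Cox6a1, Cox7a2, Ndufa11, Ndufa4l2, Ndufab1, Ndufb7, Ndufb8, Ndufc2, Ndufv3, Uqcr10 and Uqcrh. With the slide in the fit 1 member was higher and 2 were lower, beside 3.95% and 4.28% of all genes, and the members' median was -0.026. Scaling by the 75th percentile, without the slide term, gave 2 members higher and 19 lower, beside 9.18% and 11.7% of all genes.

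KE and wild-type exercise, both trained and both on slide 2, were compared next. The median difference of the members was -0.034, against -0.012 for all genes. No member was higher and 5 were lower at an unadjusted p under 0.05, beside 2.11% and 5.03% of all genes. The 5 were Atp5c1, Atp5d, Cox7a2, Ndufb8 and Uqcrh. This comparison has no slide difference between its groups, and the same differences are obtained with the slide in the fit. Scaling by the 75th percentile gave 1 member higher and 2 lower, beside 3.74% and 3.14% of all genes.

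The interaction asked whether the difference between trained and untrained mice depended on the genotype. Its median over the members was -0.033, against -0.011 for all genes. At an unadjusted p under 0.05, 0 members were higher and 2 lower, beside 3.21% and 4.85% of all genes, and the 2 were Ndufb8 and Atp5c1. With the slide in the fit 0 were higher and 7 lower, beside 4.09% and 7% of all genes. KE versus KO and wild-type exercise versus WT share no arrays, but the interaction draws on the arrays of both.

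Within complex I, the 7 core subunits measured, which hold the flavin, the iron-sulfur clusters and the ubiquinone site, had medians of -0.013, 0.0046, -0.0064, -0.034 and -0.021 in KO versus WT, wild-type exercise versus WT, KE versus KO, KE versus wild-type exercise and the interaction. None of the 7 had an unadjusted p under 0.05 in any of the 5. Ndufv1, the flavoprotein that binds NADH, differed by -0.013, 0.0046, -0.016 and -0.034 in the 4 comparisons of groups, with SE 0.040. Ndufs1, an iron-sulfur subunit of the electron input module, had a log2 intensity of 11.01, 10.86 and 11.03 in WT, 10.92, 11.01 and 10.61 in KO, 10.84, 10.87 and 10.84 in wild-type exercise and 10.88, 10.95 and 10.90 in KE. KO replicate 3 was the lowest array, and KO overlapped every other group. The KE versus KO difference of Ndufs1 was 0.064 without and 0.30 with the slide in the fit, where KO replicate 3 alone stood against KE.

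Of the 29 accessory subunits of complex I, 22 lay below 0 in KE versus KO and 22 in KE versus wild-type exercise, beside 10991 and 10014 of the 18266 genes, with medians of -0.067 and -0.049. Ndufb8 had the lowest p of the members for the interaction. Its log2 intensity was 10.28, 10.32 and 10.26 in wild-type exercise and 10.06, 10.14 and 10.17 in KE, so each KE array lay below each KO and wild-type exercise array. The difference was -0.21 in KE versus KO (SE 0.058, adjusted p = 0.135), -0.17 in KE versus wild-type exercise (adjusted p = 0.647) and -0.31 for the interaction (SE 0.081, adjusted p = 0.445, all by limma). With the slide in the fit these were -0.18, -0.17 and -0.33. The value of Ndufb8 rested on 1 of its 2 probes. The probe at chromosome 19, 44624744 to 44624803 (build mm9), gave 15.47, 15.34 and 15.53 in KO, 15.47, 15.46 and 15.38 in wild-type exercise and 15.43, 15.41 and 15.48 in KE. The dimmer probe, at 44623218 to 44623277, gave 5.32, 5.27 and 5.08 in KO, 5.10, 5.19 and 5.15 in wild-type exercise and 4.68, 4.87 and 4.86 in KE. The brighter probe alone gave -0.0076 in KE versus KO, 0.0061 in KE versus wild-type exercise and -0.011 for the interaction. The dimmer gave -0.42, -0.34 and -0.61. The dimmer probe was well above background on all 12 arrays, but near the lowest log2 intensity so called, 3.57 to 4.72 over the arrays before normalization.

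Ndufs5, another accessory subunit, had log2 intensities of 9.59, 9.17 and 8.67 in WT, 9.40, 9.41 and 9.37 in KO, 9.85, 9.81 and 9.68 in wild-type exercise and 10.02, 9.58 and 10.12 in KE. All trained arrays but 1 KE array lay above the WT and KO arrays. The differences were 0.64 in wild-type exercise versus WT (SE 0.21, adjusted p = 0.121) and 0.52 in KE versus KO (adjusted p = 0.205, limma). Its probes disagreed in size: the probe at chromosome 4, 123389974 to 123390033 (mm9), gave 0.098 and 0.099. The probe at 123393745 to 123393804 gave 1.17 and 0.93 and was well above background on 6 of the 12 arrays. This dim probe was at 4.00, 2.99 and 2.15 in WT and 4.37, 4.24 and 4.05 in wild-type exercise. Since it passed the filter without being detected on every array, its differences are partly differences in detection. The place of Ndufs5 among the higher members of both comparisons rested mainly on it.

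Complex II, which links the citrate cycle to the chain, had medians of 0.0056, 0.016, -0.042, 0.016 and 0.037 in the 5 comparisons. Sdha, its flavoprotein, had log2 intensities of 9.84, 9.96 and 9.82 in WT, 9.96, 9.73 and 10.24 in KO, 10.14, 10.09 and 10.10 in wild-type exercise and 10.27, 10.24 and 10.21 in KE. KO replicate 3 stood with the trained arrays, and the other 2 KO arrays stood with WT. The KE versus KO difference was 0.27 (SE 0.11, adjusted p = 0.205 by limma) and was -0.0023 with the slide in the fit. Of 4 Sdha probes, the 1 at chromosome 13, 74480750 to 74480809 (mm9), gave 0.94 in wild-type exercise versus WT and 0.82 in KE versus KO, while the other 3 gave between -0.045 and 0.10. Sdhb, the iron-sulfur subunit, differed by -0.028, -0.063, -0.016 and 0.018 in the 4 comparisons of groups (SE 0.039).

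In complex III, the 8 subunits had medians of 0.017, -0.0056, -0.072, -0.049 and -0.070. Each of the 8 lay below 0 for the interaction, beside 9660 of the 18266 genes. Uqcrh, the hinge protein near cytochrome c, had log2 intensities of 16.63, 16.60 and 16.71 in WT, 16.69, 16.72 and 16.51 in KO, 16.54, 16.64 and 16.60 in wild-type exercise and 16.43, 16.44 and 16.45 in KE. Every KE array lay below every other array, and KO replicate 3 was the lowest outside KE. The difference was -0.20 in KE versus KO (SE 0.061, adjusted p = 0.150) and -0.16 in KE versus wild-type exercise (adjusted p = 0.679, limma), and -0.069 in KE versus KO with the slide in the fit. The Rieske iron-sulfur protein Uqcrfs1 differed by 0.17 in wild-type exercise versus WT (SE 0.061, adjusted p = 0.146) and -0.038 with the slide in the fit. The core protein Uqcrc1 differed by -0.15 in KE versus KO (SE 0.077, adjusted p = 0.296), and 0.0013 with the slide.

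Among the 11 common subunits of complex IV the medians were 0.023, 0.066, -0.0060, -0.048 and -0.059. Cox7a2, the common isoform of subunit VIIa, had log2 intensities of 15.47, 15.43 and 15.51 in WT, 15.52, 15.53 and 15.31 in KO, 15.36, 15.42 and 15.48 in wild-type exercise and 15.20, 15.24 and 15.27 in KE. As for Uqcrh, the KE arrays were the lowest, with KO replicate 3 next. The difference was -0.21 in KE versus KO (SE 0.065, adjusted p = 0.149) and -0.18 in KE versus wild-type exercise (adjusted p = 0.673, limma), and -0.069 in KE versus KO with the slide in the fit. Cox4i1, the common isoform of subunit IV, differed by -0.16 in KE versus KO (SE 0.093) and by 0.022 with the slide. Cox5a differed by -0.10 in KE versus wild-type exercise (SE 0.053, adjusted p = 0.744).

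Cox7c, subunit VIIc, showed the widest disagreement between probes. Its averaged log2 intensity was 11.89, 12.15 and 12.03 in WT, 12.05, 11.99 and 13.01 in KO, 12.86, 12.83 and 12.39 in wild-type exercise and 12.82, 12.78 and 12.82 in KE. KO replicate 3 was the highest of the 12 arrays. The probe whose coordinates run from 86184486 to 86185363 on chromosome 13 (mm9) gave 1.60 in wild-type exercise versus WT and 1.23 in KE versus KO. The probe at 86186301 to 86186360 gave -0.26 and -0.32. The first was at 11.85 in KO replicate 3 against 9.50 and 9.37 in the other KO arrays, and the second at 14.17 against 14.60 and 14.61.

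The isoforms of complex IV typical of muscle, testis or hypoxia were measured with wider error. Of 7 isoforms tested 2 had an unadjusted p under 0.05 in wild-type exercise versus WT, Cox7a1 and Ndufa4l2, both lower, beside 14% lower and 10.6% higher of all genes. Ndufa4l2, the hypoxia-inducible paralog of Ndufa4, had log2 intensities of 8.68, 8.66 and 8.64 in WT, 8.55, 8.66 and 8.57 in KO, 8.46, 8.38 and 8.31 in wild-type exercise and 8.45, 8.45 and 8.51 in KE. Both trained groups lay below both untrained groups without overlap. The difference was -0.28 in wild-type exercise versus WT (SE 0.052, adjusted p = 0.10) and -0.12 in KE versus KO (adjusted p = 0.229, limma), and -0.24 and -0.096 with the slide in the fit. KO replicate 3, on slide 2, stood at 8.57 between the other KO arrays. Cox7a1, a heart and skeletal muscle isoform, differed by -0.21 in wild-type exercise versus WT (SE 0.089, adjusted p = 0.187) and by 0.048 with the slide.

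Cox4i2, the second isoform of subunit IV, had log2 intensities of 7.03, 6.87 and 7.31 in WT, 7.21, 6.91 and 7.96 in KO, 7.62, 7.58 and 7.45 in wild-type exercise and 7.61, 7.67 and 7.66 in KE. Again KO replicate 3 was the highest and the other KO arrays lay within the range of WT. The wild-type exercise versus WT difference was 0.48 (SE 0.22, adjusted p = 0.206) and -0.42 with the slide in the fit. Cox8b and Cox7b2 were dim and scattered: Cox8b ran from 5.65 to 7.33 and Cox7b2 from 5.18 to 6.57 over the 12 arrays. The interaction of Cox8b was -1.06 with a 95% interval from -2.31 to 0.20. Cox6a2 and Cox6b2 differed by -0.18 and -0.14 in KE versus KO (SE 0.097 and 0.096). Cox8c, a testis isoform, was well above background on 1 of the 12 arrays.

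In complex V, the F1 part that makes ATP had the members with the smallest p of KE versus KO and KE versus wild-type exercise. Atp5d, the delta subunit of the rotating stalk, had log2 intensities of 9.74, 9.68 and 9.58 in WT, 9.61, 9.69 and 9.55 in KO, 9.53, 9.56 and 9.63 in wild-type exercise and 9.35, 9.38 and 9.34 in KE. Every KE array lay below every array of the other groups. The difference was -0.26 in KE versus KO (SE 0.058, adjusted p = 0.114) and -0.22 in KE versus wild-type exercise (adjusted p = 0.561, limma), or 16.4% and 13.9% less on the linear scale. With the slide in the fit the KE versus KO difference was -0.19. Of its 2 probes, the brighter, at chromosome 10, 79608250 to 79608309 (mm9), gave -0.11 in KE versus KO and -0.040 in KE versus wild-type exercise. The dimmer, at 79604901 to 79604960, gave -0.41 and -0.39. The dimmer probe was at 5.48, 5.67 and 5.57 in KO and 5.15, 5.23 and 5.12 in KE. These values are near the lowest log2 intensity called well above background, 3.57 to 4.72 over the arrays before normalization. The brighter probe was at 13.73, 13.72 and 13.52 in KO and 13.55, 13.53 and 13.56 in KE. On it no KE array lay below KO replicate 3, so the -0.19 with the slide in the fit rested on the dimmer probe.

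Atp5c1, the gamma subunit, had log2 intensities of 15.80, 15.83 and 15.87 in WT, 15.83, 15.86 and 15.82 in KO, 15.87, 15.98 and 16.01 in wild-type exercise and 15.75, 15.76 and 15.81 in KE. Each KE array lay below each KO and wild-type exercise array, KE overlapped WT, and KO replicate 3 lay close to the other KO arrays. The difference was 0.12 in wild-type exercise versus WT (SE 0.049, adjusted p = 0.174), -0.18 in KE versus wild-type exercise (adjusted p = 0.561) and -0.19 for the interaction (SE 0.069, adjusted p = 0.551, all by limma), and -0.19 for the interaction with the slide in the fit. Atp5c1 was measured by 1 probe. Atp5f1, subunit b of the stator, differed by -0.19 for the interaction (SE 0.092, adjusted p = 0.643). Of its 3 probes, the dimmest gave -0.43 for the interaction and the others -0.079 and -0.052.

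Atp5o, which joins the stator to the catalytic head, had log2 intensities of 14.17, 14.23 and 14.20 in WT, 14.26, 14.24 and 14.61 in KO, 14.60, 14.69 and 14.56 in wild-type exercise and 14.65, 14.54 and 14.59 in KE. The split followed the slide, with KO replicate 3 among the trained arrays. The difference was 0.41 in wild-type exercise versus WT (SE 0.090, adjusted p = 0.10) and 0.23 in KE versus KO (adjusted p = 0.206, limma), and 0.057 and -0.013 with the slide in the fit. A fit on WT and wild-type exercise alone gave an adjusted p of 0.018, where 5.06% of all genes passed. The probes of Atp5o lie side by side on chromosome 16 (mm9) and read differently. The probe at 91925542 to 91925601 gave 12.32, 12.41 and 12.38 in WT, 12.46, 12.40 and 13.29 in KO, 13.22, 13.32 and 13.07 in wild-type exercise and 13.34, 13.18 and 13.25 in KE. The probe at 91925472 to 91925531 gave 16.02, 16.04 and 16.03 in WT, 16.06, 16.08 and 15.92 in KO, 15.97, 16.05 and 16.04 in wild-type exercise and 15.97, 15.90 and 15.94 in KE. Their wild-type exercise versus WT differences were 0.83 and -0.0067.

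The catalytic beta subunit Atp5b differed by 0.14 in wild-type exercise versus WT and 0.15 in KE versus KO (SE 0.058, adjusted p = 0.179 and 0.197), and by -0.060 and 0.018 with the slide in the fit. The alpha subunit Atp5a1 differed by -0.056, -0.0064, -0.0076 and -0.057 in the 4 comparisons of groups (SE 0.047). The 3 genes of the c-ring encode the same mature protein. In wild-type exercise versus WT and KE versus KO, Atp5g2 differed by -0.29 and -0.26 (SE 0.10, adjusted p = 0.145 and 0.203), Atp5g1 by -0.045 and 0.028 (SE 0.055), and Atp5g3 by -0.076 and -0.017 (SE 0.043). Atp5g2 was at 15.39 in KO replicate 3 against 15.75 and 15.88 in the other KO arrays, and its differences were 0.13 and 0.016 with the slide in the fit.

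Among the 8 complex I assembly factors, which build the complex but do not stay in it, the medians were 0.030, -0.00025, -0.061, -0.028 and -0.066. Ndufaf3 had log2 intensities of 11.21, 11.14 and 11.20 in WT, 11.18, 11.19 and 11.09 in KO, 10.99, 11.01 and 10.93 in wild-type exercise and 11.04, 11.02 and 11.14 in KE. wild-type exercise lay below WT without overlap, while KE overlapped KO. The difference was -0.21 in wild-type exercise versus WT (SE 0.053, adjusted p = 0.101) and -0.085 in KE versus KO (adjusted p = 0.376, limma), and -0.11 and -0.020 with the slide in the fit.

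**Figure D2:**
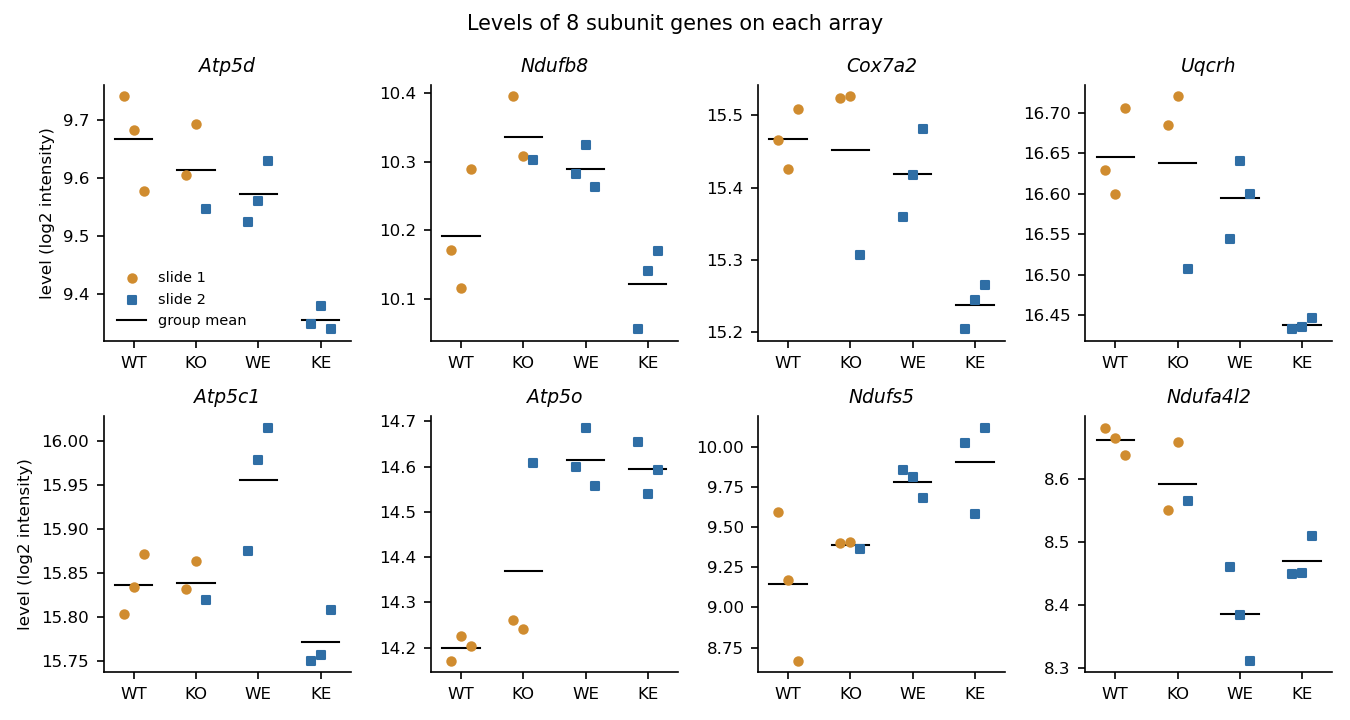
Log2 intensity (vertical axis, a separate range in each panel) of 8 members on each of the 12 arrays by group (horizontal axis, in the order WT, KO, wild-type exercise, KE). Orange circles are slide 1, blue squares are slide 2 and black bars are group means. The KE arrays are the lowest for Atp5d, Ndufb8 on average, Cox7a2 and Uqcrh, and the KO array on slide 2 sits with the trained arrays for Atp5o.

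The slide ran through many of the members. In 15 members all 7 arrays of slide 2 lay above all 5 arrays of slide 1, and in 12 members below, beside 8.53% and 10.9% of all genes. The 15 included Atp5b, Atp5o, Cox4i2, Cox6c, Cox7c, Ndufa8, Sdha and Uqcrfs1, and the 12 included Atp5g2, Cox7a1, Ndufb7, Ndufs8, Sdhb, Sdhc and Uqcr10. KO replicate 3 lay above the mean of the other KO arrays in 31 members and below it in 59. The gap was 1.18 for Ndufa8, 0.99 for Cox7c and 0.90 for Cox4i2, and -0.42 for both Ndufs8 and Atp5g2. Of the 19 members with an unadjusted p under 0.05 in wild-type exercise versus WT, 17 had a gap of the same sign within KO, or 89.5%, beside 90.4% of all genes at that threshold. The gap within KO rests on 1 array of slide 2, so the slide and other traits of that array cannot be told apart.

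Leaving out KO replicate 3 changed the count for KE versus KO. Without it, 12 members were higher and 18 lower in KE at an adjusted p under 0.05 by limma, beside 9.2% and 12.3% of all genes. The 12 included Atp5o, Cox4i2, Cox7c, Ndufa8 and Sdha, and the 18 included Atp5d, Atp5g2, Cox7a2, Ndufb8, Ndufs8, Sdhc and Uqcrh. In that set KO lay wholly on slide 1 and KE wholly on slide 2, so swimming and slide cannot be told apart. Within slide 2, where KO replicate 3 was the only KO array, 0 members had an adjusted p under 0.05, but a single KO array gave the test little room to call any, and the spread came from the other groups.

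**Figure D3:**
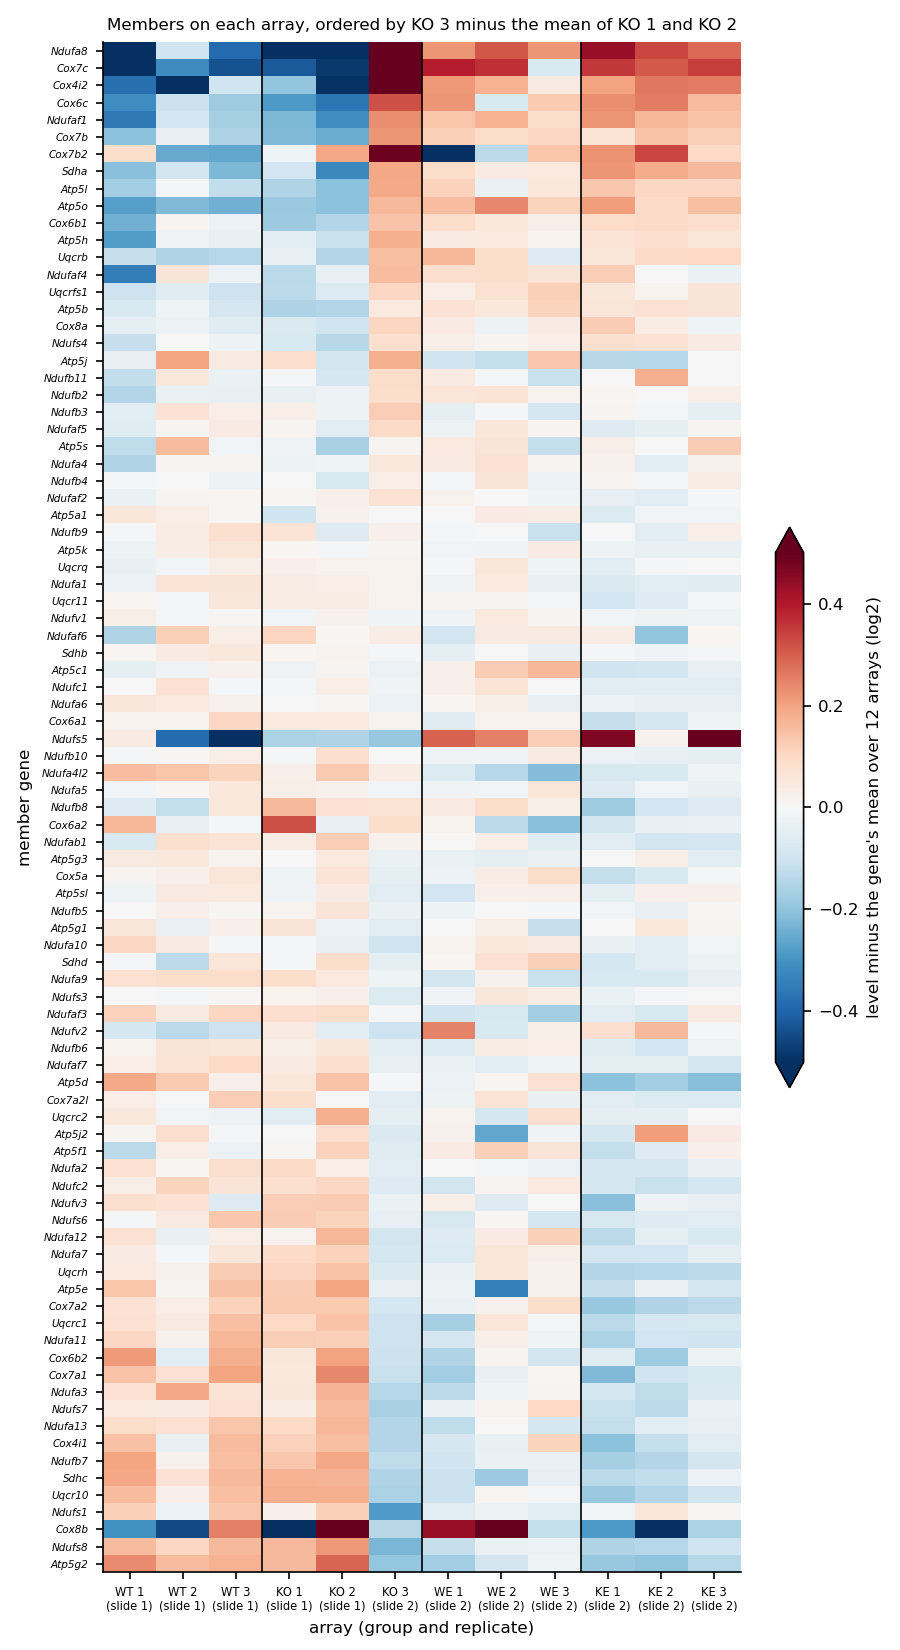
Each row is 1 of 89 of the 90 members and each column 1 array, with the color giving the log2 intensity minus the mean of the gene over the 12 arrays (the scale stops at 0.5 in each direction). Rows run from the highest to the lowest value of KO replicate 3 minus the mean of KO replicates 1 and 2. At the top and the bottom the KO 3 column resembles the wild-type exercise and KE columns rather than the other KO columns.

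**Figure D4:**
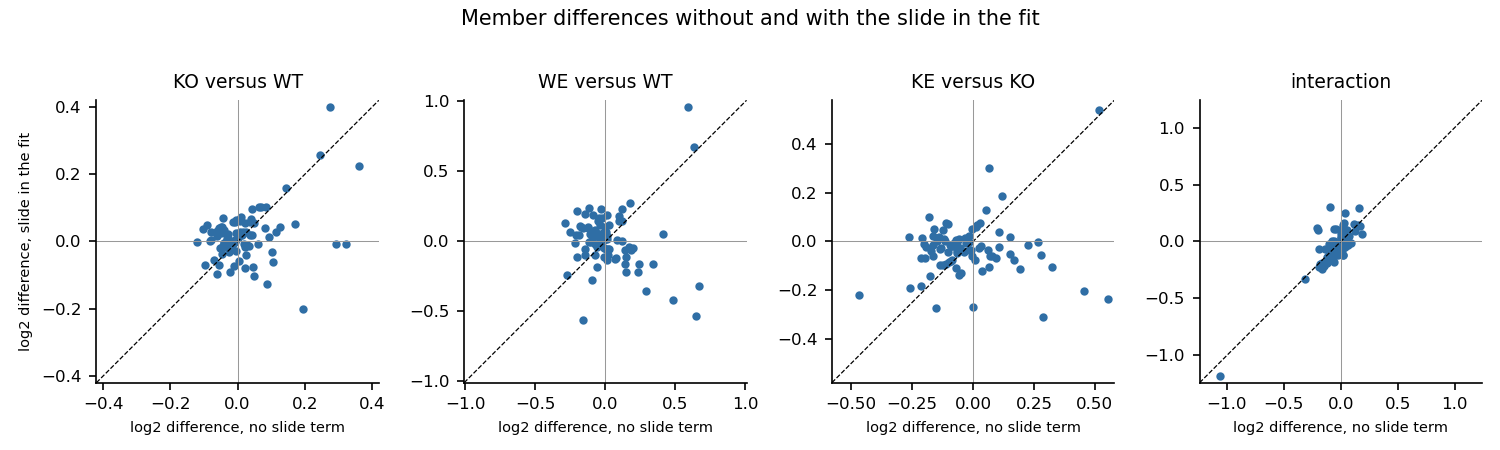
Log2 differences of the 90 members without (horizontal axis) and with (vertical axis) the slide as a term of the fit, in panels for KO versus WT, wild-type exercise versus WT, KE versus KO and the interaction. Each panel has its own range, equal on both axes, and the line of equality is dashed. Points leave the line in every panel, as for Cox7c at 0.67 without and -0.32 with the slide in wild-type exercise versus WT. KE versus wild-type exercise is left out because its values are the same in both fits.

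Several members had probes that disagreed. Of the 35 members with more than 1 probe tested, 20 had probes of opposite sign in KE versus KO and 22 in KE versus wild-type exercise. Probes with differences near 0 count here too, as for Atp5a1 at -0.020 and 0.0051 in KE versus KO. The share over all genes with several probes is not given, so these counts do not set the members apart. The range between probes of a gene had a median of 0.26 and reached 1.55 in KE versus KO.

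The mitochondrially encoded subunits, made from the mitochondrial genome, form the cores of complexes I, III, IV and V. Of these, 11 had a probe, named ND1 to ND6, ND4L, CYTB, COX1, COX2 and ATP8, and all passed the filter. Their median difference was 0.11 in KO versus WT, 0.27 in wild-type exercise versus WT, 0.24 in KE versus KO, 0.10 in KE versus wild-type exercise and 0.029 for the interaction. At an unadjusted p under 0.05, 3 were higher in wild-type exercise versus WT and 6 in KE versus KO, and none was lower, beside 10.6% higher and 14% lower of all genes in the first and 6.95% and 13.5% in the second. Under the slide fit, 0 were higher and 2 lower in wild-type exercise versus WT, beside 2.98% and 3.01% of all genes. In KE versus KO 1 was higher and 0 were lower, beside 3.95% and 4.28%. In KE versus wild-type exercise 5 were higher and 0 lower in that fit, beside 3.7% and 6.72% of all genes. The interaction had 3 higher and 0 lower, beside 4.09% and 7%. Without the slide term, 0 were higher and 0 lower in each of these last 2. ND3 was at 13.61, 13.97 and 13.77 in WT, 13.82, 13.60 and 14.68 in KO, 14.55, 14.50 and 14.22 in wild-type exercise and 14.75, 14.79 and 14.64 in KE. ND1 was at 13.66, 13.80 and 13.80 in WT, 13.61, 13.85 and 14.05 in KO, 14.06, 14.12 and 14.19 in wild-type exercise and 14.18, 14.14 and 14.24 in KE. The KE versus KO difference was 0.69 for ND3 (SE 0.23, adjusted p = 0.165) and 0.35 for ND1 (SE 0.097, adjusted p = 0.137, limma). For 5 of the 11 every array of slide 2 lay above every array of slide 1. The medians with the slide in the fit were -0.055 in KO versus WT, -0.16 in wild-type exercise versus WT, -0.0047 in KE versus KO, 0.10 in KE versus wild-type exercise and 0.12 for the interaction, where 10 of the 11 lay above 0 in each of the last 2.

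**Figure D5:**
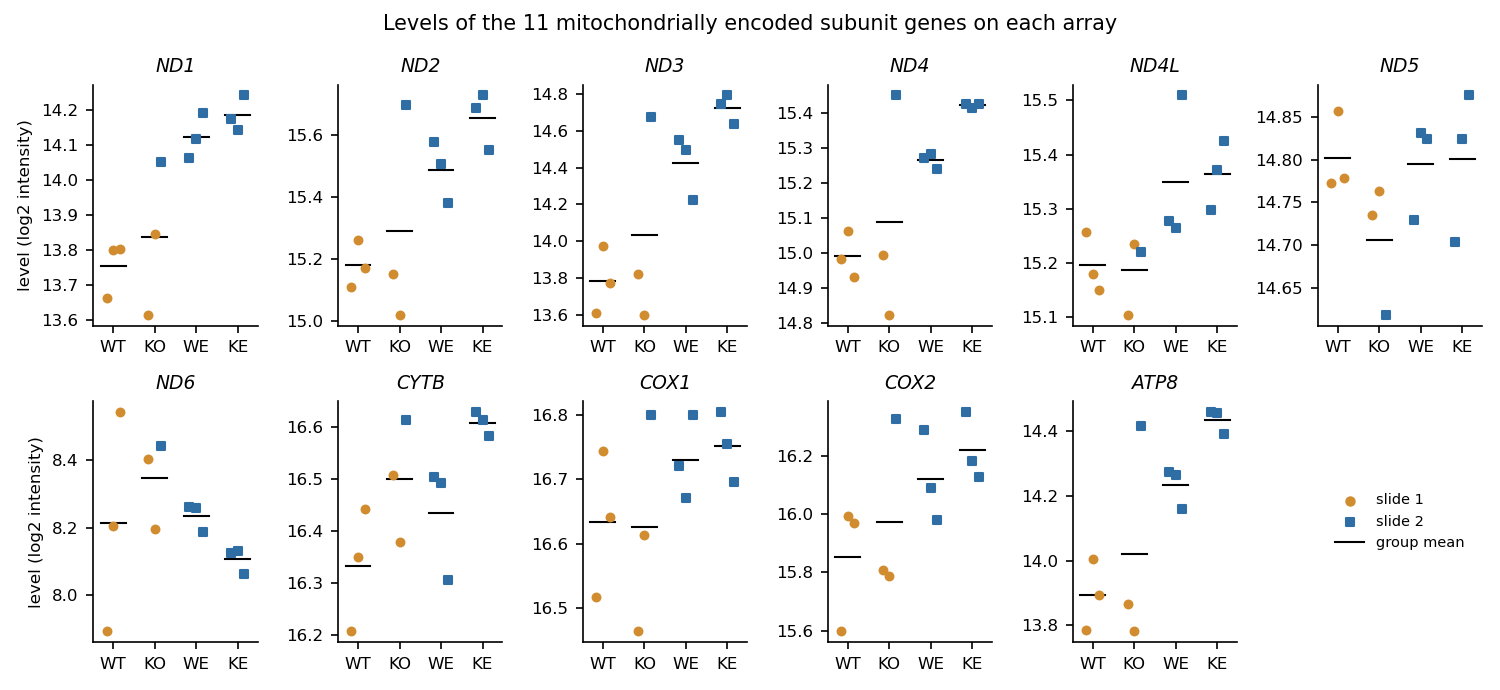
Log2 intensity (vertical axis, a separate range in each panel) of the 11 mitochondrially encoded subunits on each array by group, with slide 1 as orange circles, slide 2 as blue squares and group means as black bars. For ND2, ND3, ND4 and ATP8 the KO array on slide 2 lies with wild-type exercise and KE, above the other KO arrays.

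Other genes of the pathway were taken from lists and described in the same way. Of 30 electron carriers and assembly factors, 0 were higher and 3 lower in KE versus KO at an unadjusted p under 0.05, with Tmem126b at -0.18 (adjusted p = 0.163) and Atpif1, the ATP synthase inhibitor, at -0.23 (adjusted p = 0.164). Of 77 mitochondrial ribosomal proteins, 2 were higher and 20 lower in that comparison, where all genes had 6.95% and 13.5%. The slide fit had 1 higher and 1 lower, where all genes had 3.95% and 4.28%. Mrps6 differed by -0.35 (SE 0.078, adjusted p = 0.114) and Mrpl50 by -0.30 (SE 0.074, adjusted p = 0.121, limma), and by -0.18 and -0.13 with the slide. Of 11 regulators of mitochondrial biogenesis, 0 were higher and 1 lower. Tfam, which packages and transcribes mitochondrial DNA, differed by -0.19 (SE 0.050, adjusted p = 0.132) and Gabpa by -0.13 (SE 0.070, adjusted p = 0.300). Of 16 citrate cycle genes, 0 had an unadjusted p under 0.05 in KE versus KO, with Pdha1 at 0.094. Of 16 glycolysis genes 2 were higher and 2 lower, with Pgk1 at 0.37 (adjusted p = 0.175) and Tpi1 at -0.17 (adjusted p = 0.204), by limma. Except for Mrps6 and Mrpl50, these single genes are given only without the slide term. The KE versus KO medians without and with the slide were -0.074 and -0.026 for the carriers and assembly factors and -0.048 and -0.075 for the regulators. They were -0.013 and 0.032 for the citrate cycle and -0.044 and 0.038 for glycolysis, beside -0.041 and -0.019 for all genes.

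The promoters of the 4 members with the smallest p in KE versus KO are shown because nuclear respiratory genes are known targets of NRF1, of ETS factors such as GABPA, of YY1 and of ERR factors. Each stretch covers the 200 bases before the transcription start in RefSeq (build GRCm38.p6), in the direction of the gene. They lie at chr10:80142075-80142274 (plus strand, Atp5d, the first of 2 starts), chr19:44555443-44555642 (minus strand, Ndufb8), chr9:79759854-79760053 (minus strand, Cox7a2) and chr4:116075071-116075270 (minus strand, Uqcrh). Capitals mark matches to the searched motifs on either strand.
Atp5d: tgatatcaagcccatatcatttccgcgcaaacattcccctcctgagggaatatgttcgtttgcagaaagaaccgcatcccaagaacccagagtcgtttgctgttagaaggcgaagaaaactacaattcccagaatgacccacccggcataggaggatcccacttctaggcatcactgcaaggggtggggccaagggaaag
Ndufb8: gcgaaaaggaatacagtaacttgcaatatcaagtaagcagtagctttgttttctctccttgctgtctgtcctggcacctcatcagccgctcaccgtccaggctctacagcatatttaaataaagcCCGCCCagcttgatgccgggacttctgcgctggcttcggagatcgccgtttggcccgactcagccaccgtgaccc
Cox7a2: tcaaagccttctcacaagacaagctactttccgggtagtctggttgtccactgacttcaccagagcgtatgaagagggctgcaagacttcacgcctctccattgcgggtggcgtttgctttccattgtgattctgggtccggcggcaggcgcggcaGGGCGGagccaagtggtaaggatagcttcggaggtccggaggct
Uqcrh: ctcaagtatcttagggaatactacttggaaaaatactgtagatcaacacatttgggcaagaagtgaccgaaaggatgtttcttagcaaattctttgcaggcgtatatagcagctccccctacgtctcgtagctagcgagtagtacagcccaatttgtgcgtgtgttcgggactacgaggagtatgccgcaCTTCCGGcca

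The motifs searched were GCGCANGCG for NRF1, CCGGAAG for GABPA and other ETS factors, AAGATGGC for YY1, AAGGTCA for ERR and GGGCGG for Sp1. Cox7a2 and Ndufb8 held a Sp1 match that begins 44 and 75 bases before the start, Uqcrh an ETS match 10 bases before it, and the stretch of Atp5d held none of these letters. In the whole window of 250 bases before to 50 after the start, 75 of the 90 members had 81 promoters. Ndufb8 also held the YY1 letters in this window, though not within the printed stretch. The NRF1 letters occurred in 23 of the 81, or 28.4%, against 6.25% of 32851 promoters of all genes. The corresponding shares were 21.0% and 8.86% for ETS, 14.8% and 2.75% for YY1, 9.88% and 4.72% for ERR, and 43.2% and 35.7% for Sp1. By complex, the YY1 letters occurred in 7 of 34 complex I promoters, 3 of 18 complex V promoters, 2 of 8 assembly factor promoters, and 0 of 3, 0 of 5 and 0 of 13 promoters of complexes II, III and IV. A match is a description of the sequence and was not tied to any difference in level.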

How the data were processed

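Mouse hypothalamus RNA was measured on 12 Agilent one-color arrays, in 4 groups of 3 from the labels. The authors deposited scanner output, in which values are the processed intensity of each spot after background subtraction by Feature Extraction 10.7.1.1, and a table of log2 values that the authors quantile-normalized over all arrays. The authors' 4 comparison tables hold fold changes, p-values and 24 columns of values per sample, and were not used. Here control spots and spots with outlier flags were left out, the processed intensity was taken to the log2 scale and quantile normalization was applied. Saturation was seen in 0 spots. A probe was tested if every array of some group (3 of 3) had it well above background, and probes of a gene symbol were averaged, so a dim probe counts as much as a bright one. Differences and intervals are on the log2 scale.

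The fit of 4 group means used limma 3.58.1 (R 4.3.3) and covered 18266 genes, with Benjamini-Hochberg adjustment over all of them, for 4 comparisons of groups and the swimming by genotype interaction. Standard errors given once for a gene hold for each comparison of groups. The fit was tested on simulated data, but the outcome is not given here, so no weight rests on it. Alternatives were 75th percentile scaling, normexp (offset 50), the deposited normalized values, dropping the detection filter or asking it of all 12 arrays, 1 probe per gene (the brightest), keeping outlier spots, a slide or replicate block, fits within a slide or on the compared groups, the t-test of the methods, and leaving out each array. The slide was read from the scanner output and coincides with the scan. Probe positions (mm9) come from the annotation in the array files. The members and lists were chosen with earlier results of these data known. Genes named were 12 fixed core subunits, 8 fixed isoforms, the 4 smallest p in each comparison, the 2 members with the widest probe range in KE versus KO and up to 2 genes per list, of which 2 genes are not reported here. Ndufa8, Ndufs8, Atp5g2 and members named in counts were chosen after their values were seen. Promoters from RefSeq were searched with Python 3.11.15. The number of arrays limits the precision.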

Additional observations from a re-analysis of the deposited data

How the results depend on the processing

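With scaling by the 75th percentile, the members had a median log2 difference of -0.045 in wild-type exercise versus WT, beside -0.039 for all genes. It was 0.0060 in KE versus wild-type exercise and -0.0099 for the interaction, beside 0.012 and 0.013 for all genes. Normexp gave -0.012 in KE versus wild-type exercise, beside -0.0088. With the slide as a block the members' median was 0.018 in wild-type exercise versus WT and -0.026 in KE versus KO, the latter also within slide 2. The medians over all genes were then 0.0067 and -0.019. In wild-type exercise versus WT, 1 member, Atp5o, had an adjusted p under 0.05 in a fit on the 2 groups alone and 1, also Atp5o, by the methods' t-test. The SD over arrays of the members' median was 0.020. Leaving out each array in turn gave 0 members in every comparison except KE versus KO, with 0 to 30, the 30 without KO replicate 3. The medians then ran from -0.015 to 0.0098 in KO versus WT, -0.027 to -0.0074 in wild-type exercise versus WT, -0.066 to -0.037 in KE versus KO, -0.042 to -0.026 in KE versus wild-type exercise and -0.051 to -0.016 for the interaction. The cause was not tested. Replicate numbers were not used to pair the arrays in the main fit. Over 18 pairs of equal number the deviations correlated from -0.18 to 0.23 (median 0.011, 6 pairs over 0.1). Over 36 pairs of unequal number they correlated from -0.23 to 0.22 (median -0.018, 4 pairs over 0.1). Whether equal numbers mark a pairing was not tested. With the replicate block 0 members had an adjusted p under 0.05. The members' medians were then -0.0046, -0.016, -0.058, -0.034 and -0.033 in the 5 comparisons. Under the replicate block 4 members were higher and 7 lower in KE versus KO at an unadjusted p under 0.05, beside 6.97% and 13.7% of all genes. Of the values of single genes under settings other than leaving out an array, 1972 kept their side of the threshold and moved by less than the spread, 261 moved by more and 3 passed the threshold. These totals differ by setting. With the slide as a block 81 of 215 values moved by more, and 60 had the opposite sign. Normexp and the brightest probe moved 50 each, with 24 and 37 of opposite sign. The deposited values, keeping outlier spots and the replicate block left all 215 the same. The other alternatives kept the count of members with an adjusted p under 0.05 at 0.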
